A study of Caenorhabditis elegans with 2 samples.

Results

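Coding exon regions are the autosomal regions of the pooled MES-4 peak list that lie on protein-coding sequence and away from small RNA genes. There were 3244 of them, among 9805 autosomal regions away from small RNA genes, 10295 autosomal regions and 12028 regions in all. A region was counted when its summit, the position of strongest enrichment, lay over 220 bp from any tRNA, snRNA or snoRNA gene and in an annotated coding sequence (CDS). Summits from 500 bp upstream to 100 bp downstream of the 5′ end of a protein-coding gene, or in a 3′ UTR, were left out. The choice used positions alone, so rank and replicate support were not part of it.

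The regions come from chromatin immunoprecipitation with sequencing (ChIP-seq), in which fragments bound by a tagged protein are recovered with an antibody and mapped. The source was whole Caenorhabditis elegans young adult hermaphrodites of strain RW10325, 63 h after synchronization as starved L1 larvae. The animals carry an insertion targeting mes-4 that stably expresses MES-4 fused at its C terminus to GFP and FLAG, and anti-GFP was used on sonicated chromatin. There was 1 group with 2 biological replicates, hence no contrast between conditions and no test over samples, and values are given as counts and shares with exact 95% Clopper-Pearson intervals. Whole animals mix germline and somatic nuclei, so the cells that gave a region cannot be told apart. Control libraries, including any from animals without the tag, were not analysed here, and read depth per replicate is unknown from peak lists.

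MES-4 is a methyltransferase of histone H3 lysine 36 (H3K36) that is required for germline survival and fertility. It is known for keeping this mark on genes that were transcribed in the germline, so that the memory of their expression passes to the offspring. H3K36 methylation lies over the bodies of transcribed genes, and coding exons are a large part of those bodies in the compact worm genome.

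The sequences below are shown because they lie under the strongest coding exon regions, and they let the base content described further on be seen directly. Each is at most 121 bases of coding exon around the summit on ce11 (WBcel235, RefSeq genome sequence), written 5′ to 3′ on the strand of the gene. Capitals mark the codon that holds the summit. They come from Y43B11AR.3 (chrIV:7083409-7083529, minus strand, codon 47 of 335), cut-2 (chrV:13415539-13415659, plus strand, codon 104 of 215), his-60 (chrIV:7487684-7487787, minus strand, codon 89 of 103), fubl-1 (chrV:10238053-10238173, minus strand, codon 46 of 611), rpl-32 (chrII:9056563-9056683, minus strand, codon 106 of 134) and rib-2 (chrIII:10746398-10746518, plus strand, codon 793 of 814).
Y43B11AR.3: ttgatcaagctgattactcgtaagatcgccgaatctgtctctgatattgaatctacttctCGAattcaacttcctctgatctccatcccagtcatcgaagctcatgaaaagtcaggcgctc
cut-2: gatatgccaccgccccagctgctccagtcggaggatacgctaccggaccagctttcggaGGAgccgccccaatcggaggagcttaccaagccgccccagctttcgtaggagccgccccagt
his-60: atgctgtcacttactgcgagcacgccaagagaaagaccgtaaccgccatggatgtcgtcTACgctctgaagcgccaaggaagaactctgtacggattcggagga
fubl-1: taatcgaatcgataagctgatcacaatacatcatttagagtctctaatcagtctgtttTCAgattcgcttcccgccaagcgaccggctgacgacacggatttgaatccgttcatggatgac
rpl-32: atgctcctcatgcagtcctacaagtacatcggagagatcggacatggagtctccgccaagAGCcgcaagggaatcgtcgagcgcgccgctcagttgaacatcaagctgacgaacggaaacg
rib-2: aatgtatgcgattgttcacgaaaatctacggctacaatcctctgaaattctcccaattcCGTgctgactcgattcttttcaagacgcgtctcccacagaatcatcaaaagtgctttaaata

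The printed bases were 65.3% GC in cut-2, 56.2% in rpl-32 and 53.8% in his-60, and 40.5% to 44.6% in the other 3. Their places in the coding sequence differed, with the summit early in Y43B11AR.3 and fubl-1, in the middle of cut-2 and near the end of rib-2. No 50-base run at the 20 strongest summits had a second exact copy in the genome. Histone H4 genes are near-identical over most of their length, so reads counted at his-60 could still belong in part to another copy.

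Coding exons held more of the regions than of the bases, and most of these regions were weak. The 3244 coding exon regions were 33.1% (32.2 to 34.0) of the 9805 regions, while coding sequence made up 23.4% of the autosomal bases that could have been assigned to a class. This gave 169 coding exon regions per Mb of coding sequence. The densities were 232 per Mb in 3′ UTRs, 173 in promoter windows, 96.4 in introns and the rest of gene bodies, and 72.0 between genes. The density in coding exons was thus near that of promoters and above that of introns and intergenic sequence, and no test over samples was possible.

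Each region carries the authors' signal value, which served to rank regions within the list, rank 1 being the highest. Coding exon regions ranged from 125.66 at rank 116 to 28.3 at rank 12028, with a median of 34.9, and the highest nuclear region of the list had 378. Their median rank was 6106.5 (quartiles 3247 and 8989), close to the middle of the list. Promoter regions had a median rank of 5295.5, 3′ UTR regions 5344, other gene body regions 6695 and intergenic regions 6760. Coding exon regions therefore ranked between the promoter and the intron group by the median, with quartiles that overlapped those of every class.

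The coding exon share changed along the ranking, being lowest at the top and highest between ranks 2000 and 4000. It was 14.2% (20 of 141 regions, 8.88 to 21.1) at ranks 1 to 460 and 26.5% (99 of 373, 22.1 to 31.3) above rank 460 up to 1000. It reached 35% (294 of 840) above rank 1000 up to 2000 and 37.6% (631 of 1679, 35.3 to 39.9) above rank 2000 up to 4000. Further down it was 32.9% (1109 of 3369) and 32.1% (1091 of 3403). The interval of the first bin lay below the coding share of bases, that of the next bin held it, and the other 4 lay above it. Promoters took 34.0% of the first bin and 13.5% of the last.

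**Figure D1:**
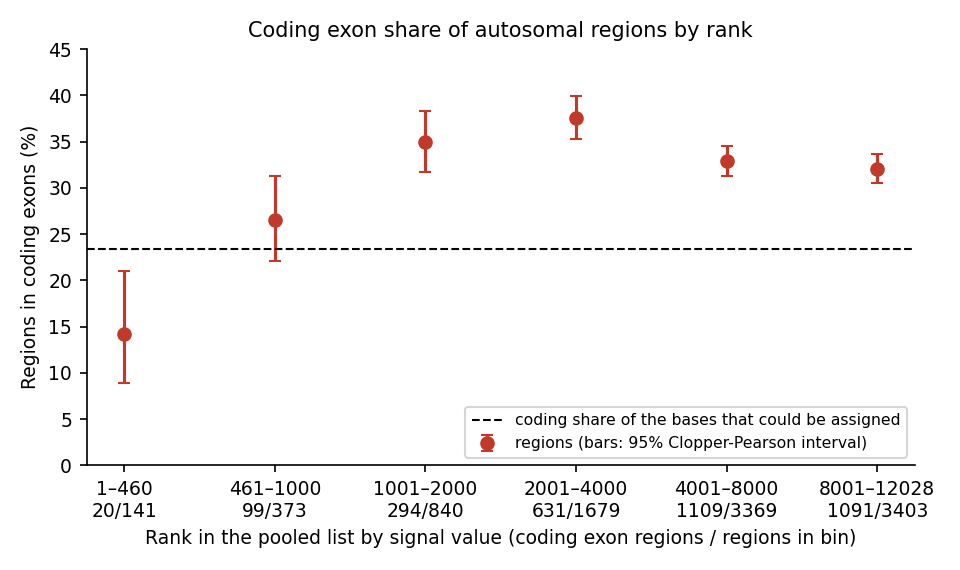
Percent of autosomal regions away from small RNA genes whose summit lies in a coding exon (y axis) by bin of rank in the pooled list (x axis, with counts). Points are shares, bars 95% Clopper-Pearson intervals and the dashed line the coding share of bases, 23.4%. The share is 14.2% in the first bin, below the line, and 37.6% above rank 2000 up to 4000, over it.

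By the authors' q value, the false discovery rate attached to each region, few coding exon regions had a low value. The median q was 0.787 (quartiles 0.544 and 0.899) for coding exon regions and 0.792 for all 9805 regions. A q of at most 0.01 was given to 28 coding exon regions (0.863%) and to 182 of the 9805 (1.86%). At a q of at most 0.05 there were 99 coding exon regions, which were 22.4% (18.6 to 26.6) of the 442 regions at that level. The excess of coding exons over their share of bases was thus seen only when regions of higher q were counted too.

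Support by the replicates was about that of the list as a whole. A peak of replicate 1 overlapped 2435 coding exon regions (75.1%), against 72.4% of all autosomal regions. A peak of replicate 2 overlapped 2200 (67.8%), against 70.4%. Both replicates had a peak at 1497 (46.1%, 44.4 to 47.9), against 46.9% of all autosomal regions, so this share was near its background. A further 938 overlapped a peak of replicate 1 alone, 703 of replicate 2 alone and 106 (3.27%) of neither. The pooled list was made from the reads of both replicates, so these overlaps are not independent evidence for a region.

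Support fell steeply with rank, in coding exons as in the other classes. All 20 coding exon regions at ranks 1 to 460 overlapped a peak in both replicates, then 96.0%, 87.8%, 70.8%, 41.5% and 19.9% in the following bins. Promoter regions in the same bins had 100%, 96.6%, 86.9%, 71.9%, 42.6% and 20.3%. The intervals of coding exons and promoters overlapped in every bin.

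**Figure D2:**
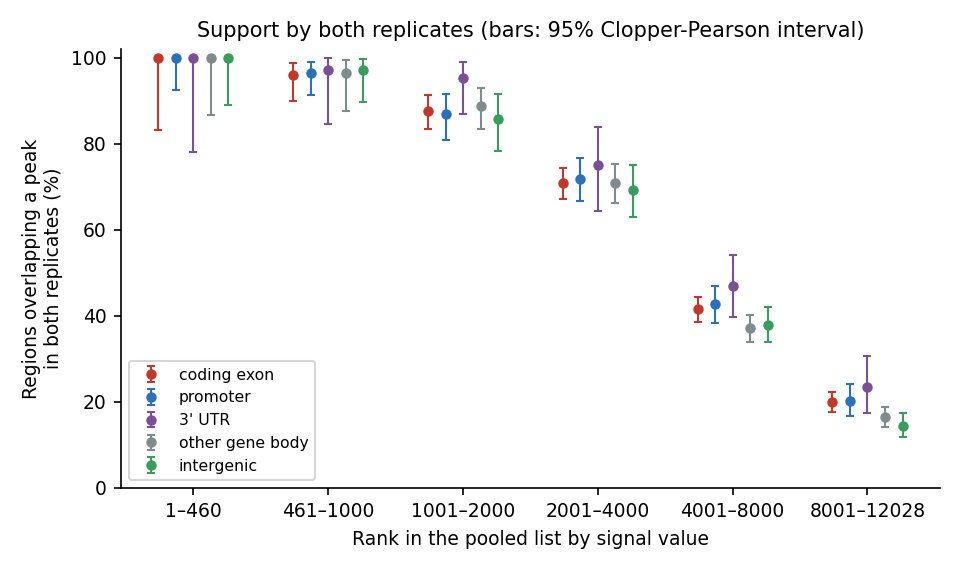
Percent of autosomal regions that overlap a relaxed peak in both replicates (y axis) by bin of rank in the pooled list (x axis), for coding exons and 4 other annotation classes. Points are shares and bars 95% Clopper-Pearson intervals. Coding exon regions fall from 100% to 19.9% along the ranking, and their intervals overlap those of promoters in each bin.

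Among the 1497 coding exon regions with a peak in both replicates, the ranks of those peaks in the replicates were weakly related, with Spearman's rho 0.20 across regions. The value was 0.31 over 867 promoter regions, 0.29 over 303 3′ UTR regions, 0.21 over 1060 other gene body regions and 0.37 over 672 intergenic regions. Regions share libraries and depth, so these are descriptions without a p. Of the 3244 coding exon regions, 50 had a rank up to 1000 in both replicates. Another 60 had such a rank in replicate 1 and no peak in replicate 2, and 35 the reverse. The same counts are not given for the other classes, so no background stands beside them. Each region took the rank of the best replicate peak that it overlapped, so a weak region could carry the peak of a stronger neighbour. In mdt-4 a region at rank 3077, beside a small RNA region at rank 111, carried ranks 72 and 237. In set-31 a region at rank 10157 carried 430 and 812, as did the region at rank 438. The 50, 60 and 35 are therefore not counts of separate sites.

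The reproducible list, made by the authors with the irreproducible discovery rate (IDR), which compares peak ranks between replicates, touched few of them. It overlapped 29 coding exon regions (0.894%, 0.599 to 1.28), against 3.84% of all autosomal regions, 43.3% of the 490 regions at small RNA genes and 1.87% of the 9805 regions away from them. Promoter regions had 3.37% and 3′ UTR regions 3.92%. Of the 29, 20 were themselves entries of that list and are the 20 strongest coding exon regions. They were all the coding exon regions at ranks 1 to 460, and the next, at rank 463, was not an entry. The low share thus goes with the few coding exon regions at the top ranks and is not a separate measure of support. The other 9 of the 29 only overlapped an entry centred next to them.

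Those 9 lay in fubl-1, rla-1, mdt-4, mrrf-1, Y48G8AL.7, hil-5, T07A9.14, set-31 and C35E7.9, at ranks from 1963 to 11311. In 4 of them the entry was centred in a coding exon, in 2 at a small RNA gene (mdt-4 and C35E7.9), in 2 in another part of a gene body and in 1 in a promoter window. The summit in mdt-4, a Mediator subunit, was 262 bp from ZK546.18, just outside the distance set by the rule. In C35E7.9 the summit lay 375 bp from a small RNA gene.

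The strongest coding exon region lay in the first coding exon of Y43B11AR.3, which encodes a protein with a TruB_N domain. Its signal value was 125.66 at rank 116, and it ranked 112 in replicate 1 and 186 in replicate 2. Its summit lay 403 bp from the small RNA gene Y43B11AR.7, so it was among the 17 coding exon regions with a summit between 220 and 500 bp from such a gene. The next, in the last coding exon of cut-2, a cuticlin of the cuticle, had a signal value of 103.89 at rank 212, and ranked 192 in replicate 1 and 240 in replicate 2. Both regions were high in both replicates.

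The short chain dehydrogenase gene R119.3 followed at rank 219 (203 in replicate 1, 242 in replicate 2). Its region overlapped a promoter region at rank 381. The gene rla-1, which encodes an acidic protein of the ribosomal stalk, came next at rank 221 (341 in replicate 1, 140 in replicate 2), with its summit at 94.6% of the coding sequence. The single coding exon of his-60, a histone H4 gene, held rank 235 (150 in replicate 1, 243 in replicate 2). Another region at rank 684, in a promoter window, overlapped it. In all 3 genes the summit lay within 220 bp of a promoter window or of a 3′ UTR.

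The GTPase gene rab-11.1, of recycling endosomes, stood at rank 317 (352 in replicate 1, 397 in replicate 2), in an internal coding exon. The first coding exon of fubl-1, a gene for a KH domain protein, held rank 322 (409 in replicate 1, 310 in replicate 2). The large ribosomal subunit gene rpl-32 held rank 366 in its last coding exon (231 in replicate 1, 654 in replicate 2). The heparan sulfate synthesis gene rib-2 held rank 374 at the end of its coding sequence (387 in replicate 1, 418 in replicate 2), beside a 3′ UTR region at rank 502. These 4 regions were ranked within the first 1000 by both replicates.

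The remaining regions among the 20 strongest lay in lmd-2 (a LysM domain protein), T01C3.11, glt-6 (a glutamate transporter), hil-5 (a linker histone H1), ZK1010.2, rsa-1 (a regulatory subunit of protein phosphatase 2A), set-31 (a SET domain protein), lin-12 (a Notch receptor), R107.5, C37C3.1 and rimb-1 (a RIM binding protein). Their signal values ran from 86.3 in lmd-2 to 77.7 in rimb-1 at rank 454. The next coding exon region, in mrps-2 of the mitochondrial ribosome, had 77.2 at rank 463 and was not in the reproducible list, so the values on either side of that limit were close. Of the 20, 19 ranked within the first 1000 in both replicates. The exception was glt-6, which ranked 148 in replicate 1 and 3057 in replicate 2. No single function covered these genes, which ranged from ribosomal proteins and histones to a Notch receptor.

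Within the coding sequence, the regions lay mostly in internal exons, and the strong ones lay more often in last exons than the share of bases. Internal coding exons held 2334 regions (71.9%, 70.4 to 73.5), against 77.2% of the coding bases that could be assigned. Last coding exons held 616 (18.99%, 17.7 to 20.4), against 15.05% of bases. First coding exons held 257 (7.92%), against 7.07% of bases, and genes with a single coding exon held 37 (1.14%), against 0.704%. First exons are counted short on both sides because the promoter window, which reaches 100 bp into the gene, was left out.

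Among the 119 coding exon regions at ranks 1 to 1000, 41 (34.5%, 25.98 to 43.7) lay in a last coding exon, 17 (14.3%, 8.55 to 21.9) in a first and 58 (48.7%, 39.5 to 58.1) in an internal one. Of the 20 strongest, 10 lay in a last, 5 in a first, 4 in an internal and 1 in the only coding exon. Below rank 4000 the 2200 regions had 17% in last, 7.09% in first and 75.05% in internal exons, near the shares of bases. These shares mix with distance to other features, since 29 of the 119 (24.4%) had a summit within 220 bp of a 3′ UTR, against 11.04% of coding bases. Within 220 bp of a promoter window lay 23 of the 119 (19.3%), against 12.1% of bases. Among the 68 strong regions farther than that from both, 14 (20.6%, 11.7 to 32.1) were in a last exon, against 6.20% of such bases. First exons held 3 of the 68 (4.41%, 0.919 to 12.4), against 2.98% of such bases, and that interval held the share of bases. Strong regions also lay in coding sequences with fewer exons, a median of 5 against 7 for coding bases. The parts of exon number, base content and nearness to a 3′ UTR in the last exon share were not tested.

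**Figure D3:**
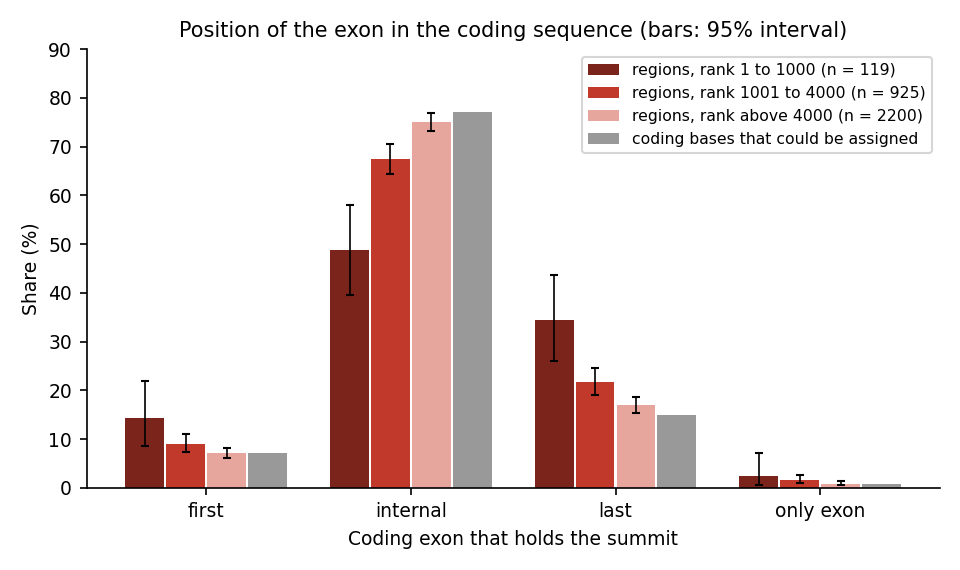
Percent of coding exon regions (y axis) in the first, an internal, the last or the only coding exon (x axis) for 3 ranges of rank, beside the percent of coding bases that could be assigned, in grey. Bars are shares with 95% Clopper-Pearson intervals. Last exons hold 34.5% of the 119 regions at ranks 1 to 1000, against 15.05% of bases, and internal exons 48.7%, against 77.2%.

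Along the coding sequence as a whole the regions were spread almost evenly. The first 10% of the coding sequence held 7.28% of regions and 6.43% of bases, the stretch from 30 to 40% held 8.82% of regions and 10.7% of bases, and the last 10% held 10.8% of regions and 9.505% of bases. The exons with a region had a median length of 316 bp (quartiles 181 and 578), against 274 bp for coding bases, and the coding sequences 1563 bp, against 1533 bp. Over the whole set, position and length thus differed little from those of coding bases. The 119 regions at ranks 1 to 1000 lay in shorter coding sequences, with a median of 1086 bp and 5 coding exons, against 1533 bp and 7 for coding bases.

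Genes with a coding exon region numbered 2636 of 17242 autosomal protein-coding genes, which is 15.3%. Of these, 2182 had 1 region and 454 had 2 or more, and 1 region lay in the coding sequence of more than 1 gene. The genes were long, with a median coding length of 1402.5 bp, against 987 bp over all autosomal protein-coding genes. A promoter region lay in the gene or up to 500 bp upstream for 482 of the 2636 genes (18.3%). The share was 10.7% of the 14606 genes with no coding exon region. A 3′ UTR region was found in that span for 5.99% of the genes with a coding exon region, against 2.97% of those without. Another gene body region was found for 21.1%, against 11.3%. These counts take any region in the span, so promoter windows, 3′ UTRs and bodies of other genes can be included. No other autosomal region fell in 1392 of the genes (52.8%). Gene length differed between these groups and its part in the shares was not tested.

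The genes with the most regions had long coding sequences. The dynein heavy chain gene dhc-1 had 9 regions over 13704 bp, at ranks from 3049 to 9998, of which 2 were found by both replicates. The spliceosomal helicase gene snrp-200 had 7, with a best rank of 1364, of which 3 were found by both. The gene set-16, which encodes a histone H3 lysine 4 methyltransferase of the MLL type, had 6, with ranks of 685, 1146, 2437, 4040, 6093 and 6671, and all 6 overlapped a peak in both replicates. In set-16 neighbouring regions overlapped each other and shared replicate peaks, so the 6 are not 6 separate sites. The ubiquitin ligase gene eel-1 had 6 regions with 2 in both replicates, and let-805, which encodes the epidermal attachment protein myotactin, had 6 with 4 in both. The gene pqn-41, like 5 other genes, had 5, of which 4 were in both, at a best rank of 803. It had 5 further regions in other parts of its gene body. Neighbouring regions also shared replicate peaks in snrp-200 (ranks 1845 and 7316), let-805 (2970 and 9162) and pqn-41 (1313 and 7278). The counts found by both replicates in these genes therefore hold some replicate peaks more than once.

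Over the whole set, 490 coding exon regions overlapped another region of the pooled list, and for 249 of them the other had the better rank. The list is therefore longer than the number of separate sites. Other noncoding genes or pseudogenes lay within 220 bp of the summit for 79 coding exon regions (2.44%), most of them piRNA genes (33) or genes annotated as ncRNA (31). No share over all autosomal regions or over coding bases is given beside these counts, so they are not read as particular to coding exons.

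The tagged gene mes-4 held 1 coding exon region, in its coding exon 4 of 10 (V, 13436508 to 13436947), with a signal value of 36.2 at rank 5376. It ranked 612 in replicate 1, replicate 2 had no peak there, and the reproducible list did not contain it. Within 25 kb of the gene on either side lay 4 coding exon regions in 17.4 kb of coding bases, 3 of them found by both replicates and 2 at a rank up to 1000. These 2 were in cut-2, 17232 bp from mes-4, and in F53F1.4, 21347 bp away at rank 646. The density there was 229 per Mb from those 4 regions, against 169 over all autosomes. Within 50 kb on either side lay 5 regions, at 174.75 per Mb. The labels do not make clear whether the tag sits at the native mes-4 gene or on an added copy, and a part of the insertion in these regions was not tested.

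Genes of the germ granules often held a coding exon region. Of 35 genes for germ granules and germline small RNAs, the machinery of P granules and Argonaute pathways, 19 (54.3%, 36.6 to 71.2) had a coding exon region, against the 15.3% over all genes. Their 28 regions lay at 319.6 per Mb of coding sequence, against 169 over all genes, with a median rank of 3166.5, and 21 (75%, 55.1 to 89.3) were found by both replicates. The RNA helicase gene rde-12 led at rank 520 (3838 in replicate 1, 259 in replicate 2), with a signal value of 74.0. It was followed by car-1, for an Sm-like RNA binding protein of germ granules, at rank 603 (814 in replicate 1, 1227 in replicate 2). The helicase gene glh-2, a relative of Vasa, stood at rank 630 (1931 in replicate 1, 818 in replicate 2), and pgl-2, for a P granule protein, at rank 1212 (1559 in replicate 1, 1373 in replicate 2). None of the 28 overlapped the reproducible list.

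Chromatin regulators and cell division genes also had shares above the 15.3% over all genes. Of 39 chromatin regulator genes 21 (53.8%) had a region, among them dot-1.1, a histone H3 lysine 79 methyltransferase gene, let-418, for a Mi-2 remodeller, mrg-1, for a chromodomain protein, and set-2, for a histone H3 lysine 4 methyltransferase. Of their 35 regions 14 (40%) were found by both replicates, against 46.1% of all coding exon regions. Here dot-1.1 ranked 799 in replicate 1 with no peak in replicate 2, and set-2 ranked 1087 in replicate 2 with none in replicate 1. The list leaves out set-16, so its 6 regions, all found by both replicates, are not counted in the 40%. Cell cycle and DNA replication genes had a region in 27 of 65 (41.5%), and 23 of their 36 regions (63.9%) were found by both replicates. The examples of best rank were mcm-7, of the replicative helicase, at 1126, bub-1, of the spindle checkpoint, at 1197, cdc-7, a replication kinase gene, at 1329 and cyb-3, a cyclin B gene, at 1499.

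The lists of germline RNA regulators, oogenesis and eggshell, meiosis and sperm genes had lower shares of genes than the germ granule list. Germline RNA regulators had a region in 12 of 35 genes (34.3%), led by nos-3, a Nanos family gene, at rank 1157. Oogenesis and eggshell genes also had 12 of 35, led by cbd-1, of the eggshell, at rank 1260. Germline RNA regulators had 305 regions per Mb of coding sequence and oogenesis and eggshell genes 313. These densities were near the 319.6 of the germ granule list. Meiosis genes had 8 of 45 (17.8%, 8.002 to 32.1), led by plk-2, a Polo-like kinase gene, at rank 2129, and sperm genes 6 of 97 (6.19%). The yolk protein gene vit-6, the only autosomal vitellogenin, had 4 regions, each found by both replicates, at ranks from 1858 to 5911. By share of genes, meiosis genes were thus near the value over all genes, and sperm genes below it. Per Mb of coding sequence both lay below the 169 over all genes, at 119.6 for meiosis and 118.5 for sperm genes.

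Genes of the general cellular machinery lay mostly above the share over all genes. Regions were found in 7 of 17 vacuolar ATPase genes (41.2%, led by vha-2), 12 of 33 genes of RNA polymerase II and general transcription (36.4%, led by spt-16) and 19 of 54 chaperone genes (35.2%, led by hsp-110). They were found in 21 of 62 genes for translation factors and aminoacyl-tRNA synthetases (33.9%, led by eef-1A.1), 15 of 51 splicing factor genes (29.4%, led by prp-3) and 9 of 33 proteasome genes (27.3%, led by rpn-10). Mitochondrial ATP synthase and respiratory chain genes had 7 of 35 (20%, led by nuo-5). The intervals of the proteasome and mitochondrial lists held the share over all genes. Support by both replicates was found for 8 of the 27 chaperone regions (29.6%) and 5 of the 16 regions of the transcription list (31.25%), against 46.1% of all coding exon regions. The leading hsp-110 region, at rank 1090, ranked 292 in replicate 1 and had no peak in replicate 2.

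Ribosomal protein genes had a region in 13 of 76 (17.1%), near the share over all genes. They are short, and only 21.2 kb of their coding sequence lay outside the promoter windows and the other classes, so the 13 regions came to 612 per Mb of coding sequence, against 169 over all genes. The list leaves out rla-1, with a region at rank 221, and T07A9.14, annotated as a protein of the small ribosomal subunit. Histone genes likewise had a region in 5 of 76 genes (6.58%), but 528 per Mb over 13.2 kb. Besides his-60, the histone list was led by the H1 genes hil-5 at rank 398 (596 in replicate 1, 410 in replicate 2) and hil-4 at rank 606 (841 in replicate 1, 977 in replicate 2), and by his-62 at rank 2138. Counting genes and counting coding length thus gave different orders for short genes.

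Genes of somatic tissues were not absent. Cuticle collagens, structural proteins made by the epidermis, had a region in 88 of 161 genes (54.7%, 46.6 to 62.5), a share close to those of germ granule genes and chromatin regulators. Their 104 regions lay at 594 per Mb, and 72 (69.2%) were found by both replicates. The leading ones were col-91 at rank 522 (383 in replicate 1, 1223 in replicate 2), dpy-13 at rank 571 (638 in replicate 1, 1068 in replicate 2), col-39 at rank 696 (1634 in replicate 1, 644 in replicate 2) and col-156 at rank 709 (1062 in replicate 1, 972 in replicate 2). The list was taken by gene name and holds some genes that are not collagens, such as dpy-27 of dosage compensation. Genes named col alone had a region in 71 of 129 (55.04%).

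Muscle structure genes had a region in 15 of 36 (41.7%), led by the perlecan gene unc-52 at rank 1883, yet their density was 120 per Mb of coding sequence, against 169 over all genes, and 9 of their 29 regions were found by both replicates. The muscle list also holds unc-44, an ankyrin gene of neurons. Intestine genes had 13 of 32 (40.6%), led by mdt-15, a Mediator subunit gene of lipid metabolism, at rank 753 and pck-1, of gluconeogenesis, at rank 1033. Neuron genes had 8 of 44 (18.2%) at 97.4 per Mb, led by the tubulin gene mec-12 at rank 4414, and none of their 8 regions was found by both replicates. Chemoreceptor families, expressed in sensory neurons, had 46 of 1276 (3.61%, 2.65 to 4.78) at 41.1 per Mb, with no region at a rank up to 2000. Their count depended on the list used, with 82 genes (6.43%) in the list of replicate 1 alone, 79 (6.19%) in that of replicate 2 alone and 19 (1.49%) from regions found by both. The shares over all genes in the same settings were 18.8%, 17.4% and 7.38%.

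**Figure D4:**
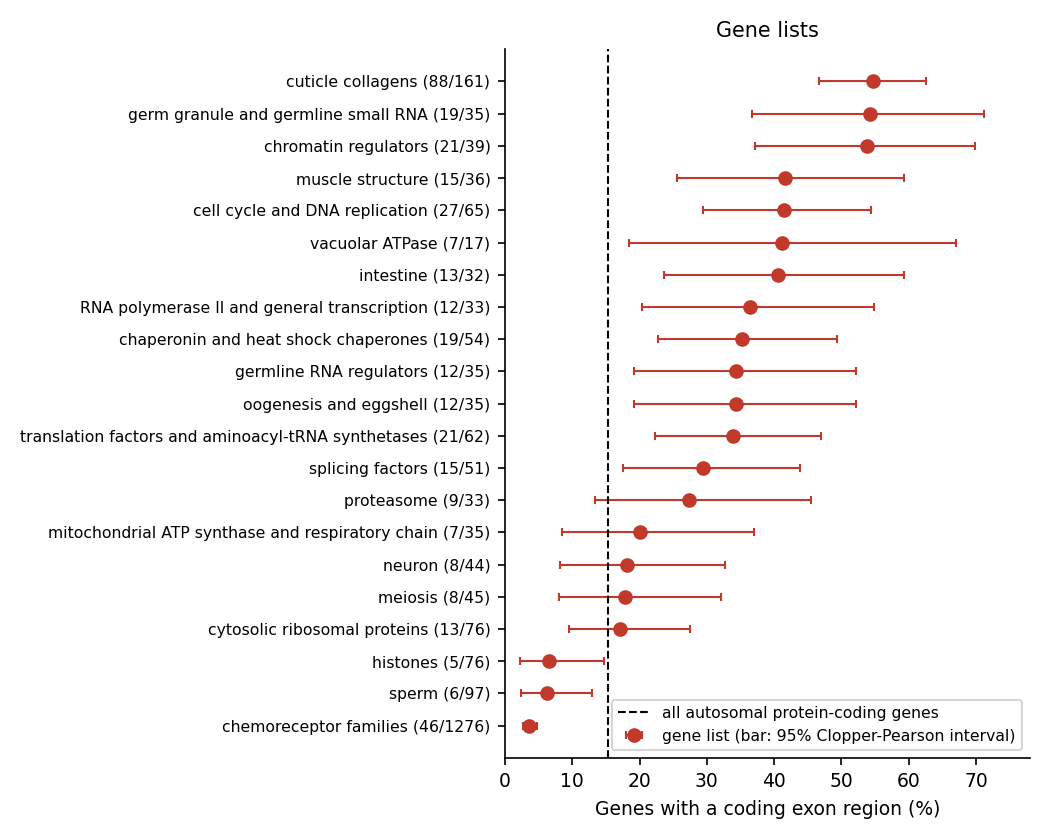
Percent of the autosomal genes of each list that hold a coding exon region (x axis), for 21 lists (y axis, with counts); the vitellogenin list, with 1 gene, is left out. Points are shares, bars 95% Clopper-Pearson intervals and the dashed line the share over all autosomal protein-coding genes, 15.3%. Cuticle collagens, germ granule genes and chromatin regulators lie between 53.8% and 54.7%, and chemoreceptor families at 3.61%.

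Base content moved with these counts. The GC content of the 200 bp around the summit had a median of 43.8% (quartiles 38.5 and 50) in coding exon regions, against 39.5% at coding bases. In the 119 regions at ranks 1 to 1000 the median was 47.5%. The density of regions was 97.96 per Mb of coding sequence below 35% GC, 108 from 35 to 40%, 137 from 40 to 45%, 229 from 45 to 50%, 517 from 50 to 55% and 1114 at 55% and over. The last bin held 359 regions (11.1%) on 1.68% of coding bases. Support by both replicates was 38.6% in the first bin and 61.0% in the last.

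**Figure D5:**
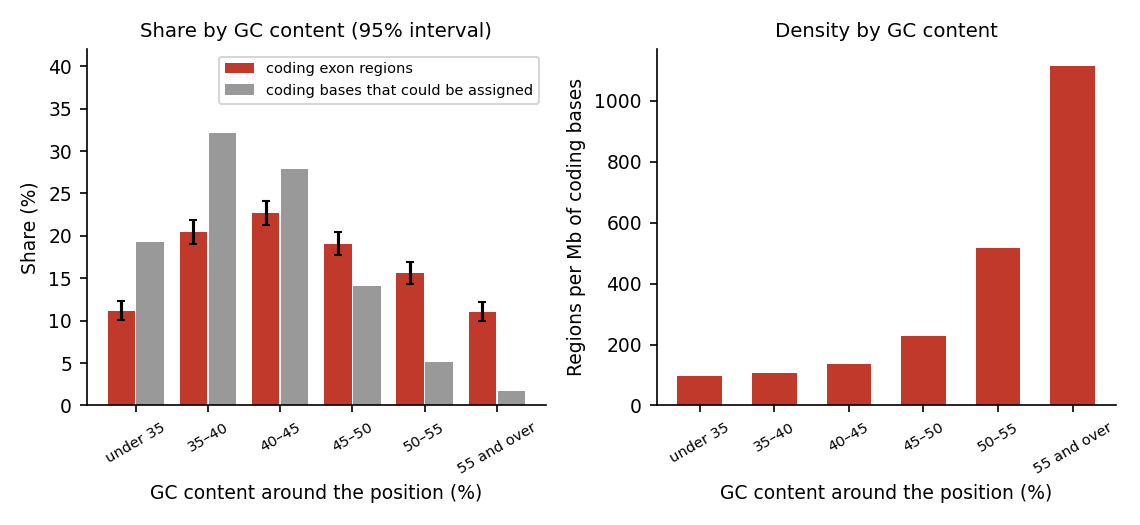
Left, percent of coding exon regions (red, with 95% Clopper-Pearson intervals) and of coding bases (grey) by GC content of the surrounding 200 bp (x axis). Right, regions per Mb of coding sequence in the same bins. The density is 97.96 per Mb below 35% GC and 1114 per Mb at 55% and over.

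The gene lists differed in base content too. Coding bases of the collagen list had a median GC of 50.5% and its regions 59.0%. If each coding base of that list had carried the density seen at its GC content over all autosomal genes, the list would have had 98.1 regions, and it had 104. The germ granule list had 28 regions, against 16.4 at such a density, chromatin regulators 35, against 19.5, chaperones 27, against 10.96, and cell cycle genes 36, against 23.4. Muscle genes had 29, against 50.7, and chemoreceptors 46, against 126.6. The density counts the regions of each list itself, and 74 of the 359 regions at 55% GC and over were in the collagen list. The closeness of the collagen count to its value is therefore partly built in. The counts of germ granule genes and chemoreceptors lay farther from theirs. Counts above such a value were not particular to germ granule genes. Vacuolar ATPase genes had 9, against 3.08, and ribosomal protein genes 13, against 6.94. Besides muscle genes and chemoreceptors, only sperm genes (6, against 10.7), neuron genes (8, against 13.4) and meiosis genes (8, against 9.11) lay below theirs. These are descriptions of 1 set of regions, and the part of base content in the recovery or the sequencing of fragments was not tested.

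Repeated coding sequence was rare at the summits. The 50 bases at the summit occurred more than once in the genome for 6 coding exon regions (0.185%), against 3.58% of coding positions. How the authors treated reads that map to several places is not given in the sources used here. The part of mapping in this difference was not tested.

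The regions were unevenly spread over the chromosomes. Chromosome III had 216 per Mb of coding sequence, I had 184, II had 178, IV had 160 and V had 127. Of 3 equal parts of each chromosome by length, the central one held 39.4% of the regions (37.7 to 41.1), against 40.4% of the coding bases. Under the same rule the X chromosome, which the definition leaves out, had 357 regions, or 108 per Mb, against 169 per Mb on the autosomes. At the autosomal density for its GC content the X would have had 529. Support by both replicates was found for 142 of those 357 regions.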

How the data were processed

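MES-4-GFP ChIP-seq of 2 biological replicates, 1 group, was analysed from the ce11 peak lists. Per the labels and file names, the authors deposited a relaxed list per replicate, a pooled one and a reproducible (IDR) list. Each deposited region has a signal value, a score used only for ranking within a list, and a −log10 q value. The p column was not filled. Which aligner and peak caller were run, and with which cut-offs, is not given in the sources used here. Depth is unknown, the ce10 lists were not used, and intervals cover counting error only.

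Summits were assigned with the Ensembl 115 annotation in the order small RNA gene, promoter, 3′ UTR, coding exon, other gene body, intergenic. Where transcripts overlapped, that with the longest CDS was used. Overlap meant at least 1 bp. Assignment was tested on simulated positions. Tools were matplotlib 3.10.9, scipy 1.17.1, pandas 2.3.3 and numpy 2.4.6 on Python 3.11.15.

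The members and the 22 gene lists were chosen with earlier results of these data known. Named genes are mes-4, those of the 20 strongest regions and of the reproducible list, the 6 genes with most regions, and up to 4 per list by signal. F53F1.4, mrps-2 and dpy-27 were added after their values were seen. Alternatives changed the small RNA distance, the promoter window, summit or midpoint, list length, merging, the overlap rule, and the use of each replicate alone.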

Additional observations from a re-analysis of the deposited data

How the results depend on the processing

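The coding exon share kept within its interval with a small RNA distance of 500 bp, region midpoints, the 6000 strongest regions or merged regions. It was 28.2% with the promoter window at 1000 bp upstream and 200 bp downstream, and 22.4% at a q of at most 0.05, an alternative chosen after seeing the data. With each replicate alone it was 30.3% to 33.3%. The share in internal exons was 75.9% with the wider promoter window, 68.4% in the 6000 strongest regions, 46.5% at a q of at most 0.05, and 72.9% to 73.8% with each replicate alone. Among the 6000 strongest regions the median rank percentile was 53.5% of that list, against 50.8% of the whole list, the share in the reproducible list was 1.63%, the share found by both replicates 68.6%, and the number of genes 1409. Support by both replicates was 38.7% when an overlap of 0.5 of the region was required, 24.4% with summits at most 100 bp apart, 17.1% among the 6000 strongest peaks of each replicate, and 43.8% without regions that overlap one of better rank, also added later. Genes with a region numbered 2994 to 3249 with each replicate alone. The 2 replicates had 1424 of these genes in common, 43.8% of those of replicate 1 and 47.6% of those of replicate 2. Also added later, the gene lists gave 84 to 91 collagen genes (52.2% to 56.5%) and 17 to 23 germ granule genes (48.6% to 65.7%) with each replicate alone, where all genes had 17.4% to 18.8%. From regions found by both they gave 60 (37.3%) and 13 (37.1%), where all genes had 7.38%. Chemoreceptor genes numbered 79 to 82 with each replicate alone and 19 from regions found by both. The cause of these shifts was not tested. No paired analysis was possible because there is 1 group. Depth is unknown, so how far it limits the weak regions cannot be given.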
